A study of Mus musculus with 18 samples.

Results

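Bulge cells that had divided 1 to 2 times during a label chase that ended on postnatal day 21 (PD21) were compared with non-bulge skin cells of the same mice, over 6 of the 18 arrays of the series. The members are the 3 arrays titled as bulge with 1-2 divisions and the 3 titled as non-bulge in the PD18-PD21 chase, and the mouse number of each title pairs them. All mice were K5tTA x pTRE-H2B-GFP double transgenics from FvB and CD1 parents, in which doxycycline in the food at 1 g per kg switched off H2B-GFP from PD18 to PD21, so that cells diluted the label as they divided. The bulge fractions and the non-bulge fraction were sorted on surface CD34 and alpha 6-integrin, and the bulge cells also on the GFP they retained. A further fraction of the same 3 mice, bulge cells with 0 divisions (undivided bulge), and the same 3 fractions of 3 other mice chased from PD22 to PD25 serve here only for contrast. Every group, non-bulge included, carries both transgenes and had doxycycline. The GFP label depends on the Keratin 5 promoter. The sample labels give no number of divisions for the non-bulge cells and do not say whether these were gated on GFP, so their division history is not known. Each array holds RNA of 1 numbered mouse.

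The bulge is the niche of hair follicle stem cells, a swelling of the outer root sheath below the sebaceous gland, and its cells are known for surface CD34, for transcription factors such as Lhx2, Sox9 and Tbx1, and for secreted Wnt and BMP antagonists. These cells rest for most of the hair cycle and divide around the start of a growth phase, when Wnt signals rise and BMP signals fall in and around the niche. Cells that leave the bulge supply the lower follicle, while the interfollicular epidermis is kept up by its own basal cells.

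In divided bulge cells, 49 of 11569 tested genes (0.424%) were higher than in non-bulge cells of the same mice, and 0 were lower at an adjusted p under 0.05 (limma, Benjamini-Hochberg adjustment over all genes). At an unadjusted p under 0.05, 604 genes were higher (5.22%) and 248 lower (2.14%), so the higher side was the fuller one at the looser threshold as well. The 49 genes include those for the bulge surface proteins CD34 and NG2 (Cspg4), the transcription regulators Lhx2, Tbx1, Id4, Bnc2 and Cited2, the Wnt pathway proteins Dkk3, Sfrp1, Fzd1, Fzd2 and Shisa2, and the BMP and TGF-beta regulators Grem1, Fstl1 and Ltbp1. Their differences ran between 0.84 and 4.41 on the log2 scale with a median of 1.91, a fold of 3.75, and the median over all tested genes was 0.03. All 49 differences were positive in each of the 3 mice (17.3% of all genes were), and in 44 of them all 3 divided arrays lay above all 3 non-bulge arrays (5.06% of all genes did). The 49 were chosen on these same arrays, so much of the gap to the shares of all genes is built in. The groups overlapped in Ly6g6c, Ndrg2, Rflnb, Phyhip and Fzd1, where mice differed in level more than fractions did. Without the mouse as a block, 21 genes passed (0.182%), all of them among the 49, and again 0 were lower. The 28 genes that did not pass without it include Fzd1, Fzd2, Cited2, Ltbp1, Ctnnd2, Dab2, Ephb1, Nt5e, Col8a2, Mfge8, S100a4 and each of the keratin, hair and cornified layer genes other than Krtap17-1.

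Levels are given throughout as log2(signal + 16), on which a signal of 0 stands at 4. A difference is divided bulge minus non-bulge, over 3 mice per group, with the standard error of the fit. That error, like each interval, comes from a residual variance over all arrays of both ages that also borrows from other genes. For a gene it is the same at both ages, and it is not the spread of the 3 mice compared. The 3 differences of Cspg4 had a standard deviation of 1.78 (error of the fit 0.42), and those of Lhx2 0.18 (error 0.25). In these bulk samples, fewer cells of a type and less RNA per cell cannot be told apart. Within each mouse the median difference of the 49 genes was 1.71, 1.84 and 2.20 in mice 1, 2 and 3, while the median of all genes was 0.00, 0.07 and 0.02. These differences chose the 49 genes, so much of this gap is built in as well. Without the divided array of mouse 3, 13 genes passed, the lowest count over the fits that left out 1 array or 1 mouse, and without the non-bulge array of mouse 1, 39 passed, the highest. Those 13 genes, which passed in each such fit, were Cd34, Cspg4, Lhx2, Id4, Dkk3, Sfrp1, Shisa2, Fstl1, Col1a1, Sema3e, Krtap17-1, Armcx2 and Rnf150. By contrast, 21 of the 49 passed in at most 3 of these 9 fits, among them Fzd1, Fzd2, Cited2, Col8a2, Ephb1, Homer2, Mfge8, Sgk1, Tgm5 and S100a4, and Krt23, Ndrg2 and Rnf152 passed in 0. With the mean of a gene's probe sets in place of the brightest, 24 of the 49 did not pass, and the difference moved by over 1.5 times in 10 of the 49, Armcx2, Bnc2, Cspg4, Ctnnd2, Fzd1, Ltbp1, Ly6g6c, Rai14, Rflnb and Sema3e. At the edge of the threshold, Fzd1 (adjusted p = 0.0414) and Dab2 (adjusted p = 0.0436) lay just inside and Sbsn (0.77 ± 0.17, adjusted p = 0.0542) and Dpysl3 (1.90 ± 0.44, adjusted p = 0.0618) just outside.

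**Figure D1:**
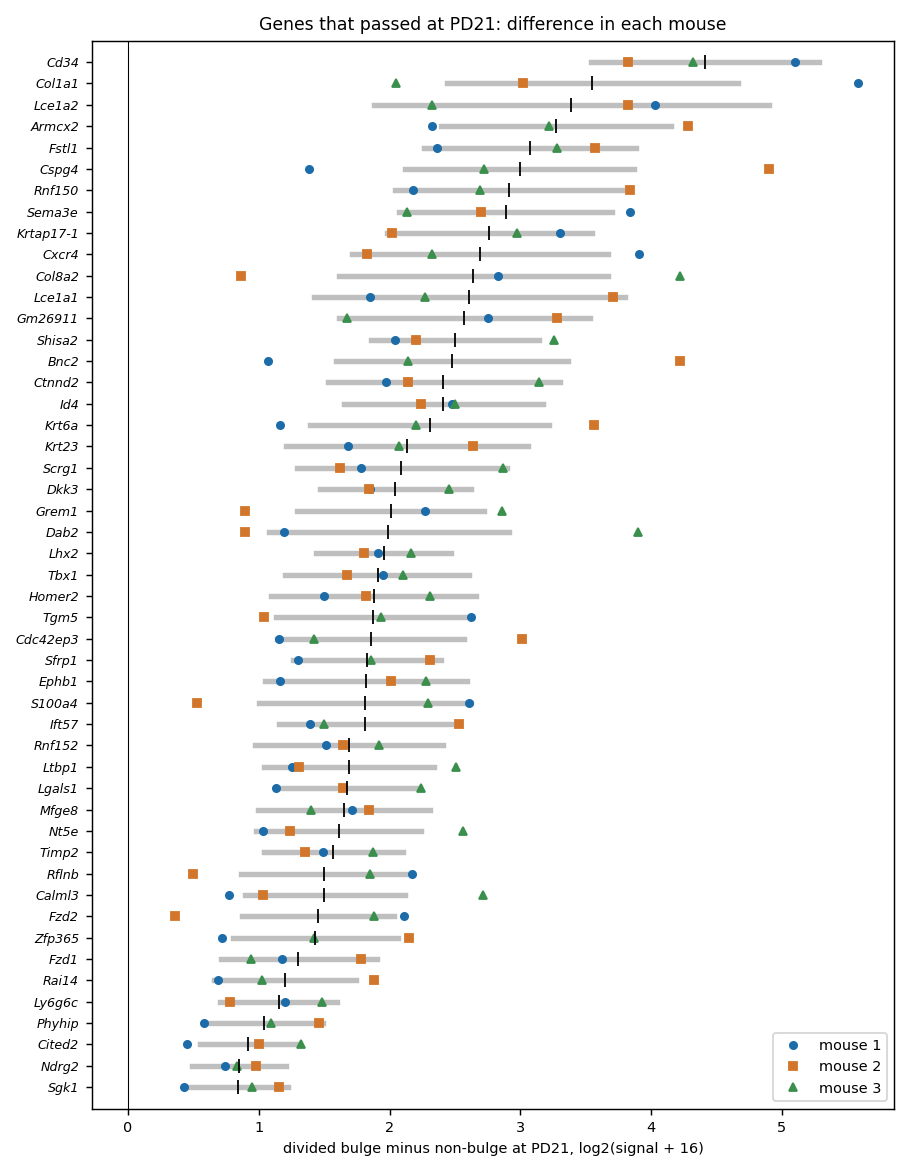
Difference in level between divided bulge and non-bulge cells at PD21 for the 49 genes that passed, on the log2(signal + 16) scale. Symbols are the 3 mice and the tick is the fitted difference. The grey bar is its 95% interval from the fit to all arrays, not from the spread of the symbols. Every symbol lies to the right of 0, and the widest spreads between mice are those of genes such as Col1a1 (5.58, 3.02 and 2.05) and Cspg4 (1.38, 4.90 and 2.72).

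The promoters of 4 of these genes are printed because they stand for the markers and the pathways the comparison turns on: Cd34 and Lhx2 mark the bulge, Grem1 is a BMP antagonist and Fzd1 a Wnt receptor. Each runs from 250 bases before to 50 after the start listed in RefSeq (GRCm38.p6), is written along the gene's strand, and shows in capitals any TCF/LEF letters (CTTTGA or CTTTGT, on either strand). The windows are chr1:194938571-194938870 (plus strand) for Cd34, chr2:38339031-38339330 (plus) for Lhx2, the first of 2 starts, chr2:113758599-113758898 (minus) for Grem1 and chr5:4758167-4758466 (minus) for Fzd1.
Cd34: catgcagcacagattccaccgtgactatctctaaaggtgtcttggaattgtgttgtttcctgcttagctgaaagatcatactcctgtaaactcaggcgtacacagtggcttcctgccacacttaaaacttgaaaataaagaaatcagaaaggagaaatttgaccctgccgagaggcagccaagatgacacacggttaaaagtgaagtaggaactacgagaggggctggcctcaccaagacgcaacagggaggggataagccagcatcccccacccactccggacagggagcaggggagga
Lhx2: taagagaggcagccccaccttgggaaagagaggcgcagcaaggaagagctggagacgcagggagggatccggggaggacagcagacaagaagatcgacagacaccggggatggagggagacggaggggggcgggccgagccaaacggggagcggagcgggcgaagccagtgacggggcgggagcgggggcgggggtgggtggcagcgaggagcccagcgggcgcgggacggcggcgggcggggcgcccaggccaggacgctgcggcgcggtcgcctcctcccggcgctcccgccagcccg
Grem1: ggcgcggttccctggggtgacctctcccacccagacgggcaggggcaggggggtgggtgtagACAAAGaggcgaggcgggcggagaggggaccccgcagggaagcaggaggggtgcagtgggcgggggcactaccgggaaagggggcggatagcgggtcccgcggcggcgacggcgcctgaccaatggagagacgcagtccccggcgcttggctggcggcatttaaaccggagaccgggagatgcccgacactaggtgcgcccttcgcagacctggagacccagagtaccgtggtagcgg
Fzd1: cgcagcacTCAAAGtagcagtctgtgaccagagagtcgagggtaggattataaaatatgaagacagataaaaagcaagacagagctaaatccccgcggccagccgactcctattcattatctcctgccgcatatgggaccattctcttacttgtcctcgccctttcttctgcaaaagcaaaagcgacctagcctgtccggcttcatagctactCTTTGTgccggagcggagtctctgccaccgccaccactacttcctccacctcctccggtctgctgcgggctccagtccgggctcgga
The letters occur once in the Grem1 window, at position -188 with the start as 0, and in the Fzd1 window at -242 and -37, while the Cd34 and Lhx2 windows hold none. Of the 49 genes, 39 have a listed promoter, and 12 of these (30.8%) hold TCF/LEF letters, as do 22.9% of the 9377 tested genes with a listed promoter. Of the other motifs, searched on both strands, the LHX letters TAATTA or TAATTG were held by 7.69% of the 39 promoters, against 6.57% of the 9377. The RUNX letters TGTGGT were held by 15.4%, against 12%, and the SOX letters AACAAT by 10.3%, against 5.82%. The letters AGATAA, read by GATA factors, were held by 7.69%, against 5.97%. These are descriptions of letters in a window, with no test.

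Cd34, the surface sialomucin on which the bulge was sorted, stood at 9.19, 7.91 and 9.68 in divided bulge cells of mice 1, 2 and 3, against 4.10, 4.10 and 5.36 in non-bulge cells. The groups were far apart, with linear signals of 568.5, 224.7 and 806.8 in divided bulge cells and 1.1, 1.1 and 25.1 in non-bulge cells. Because the sort used CD34, its difference of 4.41 ± 0.42 (adjusted p = 7.52e-06) checks the gate and is no finding, and its size depends on the constant added to the signal, with 6.59 for a constant of 1 and 2.91 for 64. Armcx2, Gm26911 and Scrg1 also moved by over 1.5 times with this constant. Undivided bulge cells of the same mice had 13.12, 12.40 and 12.67, so the divided minus undivided difference was -3.80 ± 0.42 (adjusted p = 2.53e-06). Itga6, which encodes the other sorting antigen, stood at 13.14, 13.34 and 12.80 in divided bulge cells, against 13.10, 13.41 and 12.93 in non-bulge cells, a difference of -0.05 (95% interval -0.36 to 0.26).

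Cspg4, the NG2 proteoglycan, was not part of the sort and stood at 9.81, 10.10 and 10.99 in divided bulge cells, against 8.43, 5.20 and 8.28 in non-bulge cells. It was higher by 3.00 ± 0.42 (adjusted p = 0.000589) without overlap, most in mouse 2 (4.90), whose non-bulge level was by far the lowest, and its 1 other probe set gave 0.95. The basal keratins that all these epithelial fractions share did not pass: the difference was 0.22 for Krt5 (interval -0.04 to 0.49), 0.09 for Krt14 (-0.21 to 0.38) and 0.19 for Krt15 (-0.07 to 0.45). Krt15, often used as a bulge marker, stood between 14.24 and 15.70 in all 6 arrays, and mouse 3 was the lowest in both fractions.

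Among transcription regulators, Lhx2, a LIM homeodomain factor needed to maintain hair follicle stem cells, gave 9.84, 9.21 and 9.87 in divided bulge cells, against 7.93, 7.41 and 7.71 in non-bulge cells. Its difference of 1.96 ± 0.25 (adjusted p = 0.000292) was alike in the 3 mice (1.91, 1.80 and 2.16) and the groups did not overlap. Tbx1, a T-box factor of the bulge, had 9.36, 8.66 and 10.02 in divided bulge cells, against 7.42, 6.98 and 7.93 in non-bulge cells, and rose by 1.91 ± 0.34 (adjusted p = 0.00766). Id4, an inhibitor of basic helix-loop-helix factors and a common BMP target, had 12.87, 13.07 and 12.45 in divided bulge cells, against 10.39, 10.83 and 9.94 in non-bulge cells. Id4 rose by 2.41 ± 0.36, by nearly the same amount in each mouse (2.48, 2.24 and 2.50). Bnc2, a zinc finger protein, differed by 1.07, 4.22 and 2.14 in the 3 mice, and Cited2, a partner of CBP and p300, by 0.45, 1.00 and 1.32. The Bnc2 difference was 2.48 ± 0.43, but its 2 other probe sets gave 0.25 and 1.02, it did not pass with the mean of probe sets (1.25, adjusted p = 0.362), and it did not pass without the divided array of mouse 2 (adjusted p = 0.0829) or mouse 3 (adjusted p = 0.0863). Without non-bulge mouse 2 it passed at 1.49. Bnc2 stood low in the non-bulge array of mouse 2 (5.99, with 8.98 and 8.84 in the others), the same array in which Cspg4 was lowest.

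Other bulge regulators did not pass. Sox9, which bulge cells need, stood at 11.07, 10.99 and 10.64 in divided bulge cells, against 10.31, 9.87 and 9.81 in non-bulge cells. The groups did not overlap and the difference was 0.90 ± 0.22 (adjusted p = 0.084). The intervals were 0.26 to 1.17 for Runx1, 0.05 to 1.10 for Nfatc1, 0.23 to 2.36 for Lgr5 and -0.87 to 1.24 for Tcf7l1, whose mice disagreed in sign (-1.44, 1.67 and 0.33). Over the list of bulge transcription factors, 2 of 16 passed (Lhx2 and Tbx1, both higher) and the median difference was 0.34.

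In the Wnt pathway, 2 secreted antagonists and 2 receptors passed, the antagonists in 9 of 9 fits that left out an array or a mouse and the receptors Fzd2 and Fzd1 in 3 and 1 of 9. Dkk3, a secreted Dickkopf family member, had 10.07, 9.22 and 11.63 in divided bulge cells, against 8.22, 7.38 and 9.19 in non-bulge cells, a rise of 2.04 ± 0.28 (adjusted p = 0.000456). Its groups just failed to meet, since the lowest divided level, in mouse 2, lay next to the highest non-bulge level, in mouse 3. Sfrp1, which binds Wnt ligands outside the cell, had 10.63, 11.19 and 11.52 in divided bulge cells, against 9.33, 8.87 and 9.66 in non-bulge cells, a rise of 1.83 ± 0.27. The receptor Fzd2 had 10.83, 10.32 and 11.28 in divided bulge cells, against 8.72, 9.96 and 9.40 in non-bulge cells, a rise of 1.45 ± 0.28 that was smallest in mouse 2 (0.36). The receptor Fzd1 rose by 1.30 ± 0.29 with overlapping groups, and its 1 other probe set gave -0.11. Without the mouse as a block neither receptor passed (adjusted p = 0.146 for Fzd2 and 0.408 for Fzd1). Shisa2, of a family whose Xenopus founder holds Frizzled receptors back in the endoplasmic reticulum, had 10.04, 9.61 and 11.76 in divided bulge cells, against 8.01, 7.41 and 8.50 in non-bulge cells, a rise of 2.50 ± 0.31. Over the Wnt list, 4 of 32 tested genes rose (Dkk3, Sfrp1, Fzd1 and Fzd2), 0 fell and the median difference was 0.25.

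Among BMP and TGF-beta regulators, the BMP antagonist Grem1 had 9.34, 8.17 and 9.90 in divided bulge cells, against 7.07, 7.29 and 7.04 in non-bulge cells. Non-bulge levels of Grem1 hardly varied, and the rise was 2.01 ± 0.34 (adjusted p = 0.00594). Fstl1, a secreted follistatin-like protein that can dampen BMP signalling, had 7.69, 9.04 and 10.12 in divided bulge cells, against 5.33, 5.47 and 6.85 in non-bulge cells. Fstl1 rose by 3.07 ± 0.39, and with Cd34 it was 1 of 2 genes that passed under each of the 23 alternative settings. Ltbp1, which anchors latent TGF-beta in the matrix, rose by 1.69 ± 0.31, although its 2 other probe sets gave between -1.32 and 0.29. Over the BMP and TGF-beta list, 3 of 32 tested genes rose (Grem1, Id4 and Ltbp1), 0 fell and the median was 0.12. Bmp4 itself did not pass (-0.39, interval -1.37 to 0.60).

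**Figure D2:**
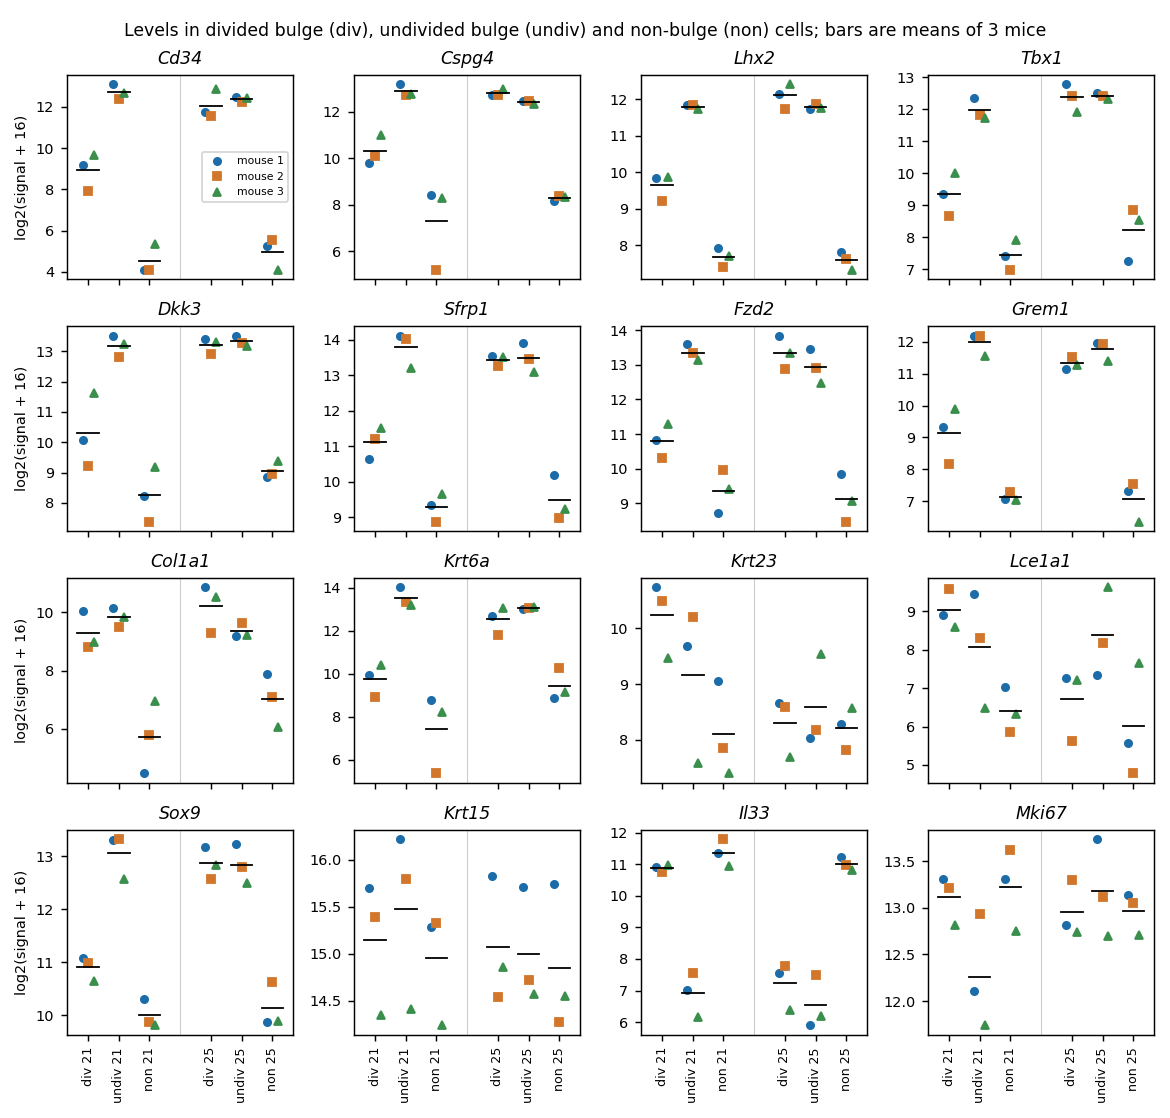
Level of 16 genes as log2(signal + 16) in divided bulge (div), undivided bulge (undiv) and non-bulge (non) cells at PD21 and PD25, with a symbol per mouse and a bar at the mean of 3 mice. At PD21 the divided bulge bars of Cd34, Lhx2 and Dkk3 lie between those of undivided bulge and non-bulge cells, and at PD25 they lie at the height of the undivided bulge. Vertical scales differ between panels.

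Of the matrix and extracellular genes, Col1a1, a chain of type I collagen, had 10.05, 8.81 and 9.0 in divided bulge cells, against 4.47, 5.79 and 6.95 in non-bulge cells. It rose by 3.55 ± 0.53 (adjusted p = 0.00122), with no overlap and a wide range between mice (5.58, 3.02 and 2.05). Col1a1 is also a marker of dermal fibroblasts, and it was the only 1 of the 10 tested genes of that marker list to pass. The summed signal of 19 fibroblast probe sets lay between 16460 and 24211 in divided bulge cells and between 13564 and 15960 in non-bulge cells, and 34861 to 58942 in undivided bulge cells. Bright members of that list were Sparc, with signals of 7988.9, 5862.2 and 4916.9 in divided bulge cells and 3286.9, 4919.7 and 3054.6 in non-bulge cells, and Postn, with 9614.7, 6342.7 and 7542.5 against 6502.9, 6535.1 and 5174.5. Col1a2, the partner chain of Col1a1, had 529, 50.5 and 170.4 in divided bulge cells and 69.2, 134.4 and 47.1 in non-bulge cells, with its highest signal in the divided array of mouse 1, where Col1a1 was highest too. Over the list 9 of the 10 estimates were positive, beside 53.9% of all tested genes, with a median of 0.66. Lum and Dcn, defining fibroblast genes too dim to be tested, did not stand higher throughout: Lum had signals of 4.6, 17.1 and 19.6 in divided bulge cells and 20.2, 0.9 and 13.2 in non-bulge cells, and Dcn 31, 6.7 and 110.5 against 51.1, 43.8 and 49.3. Col3a1, by contrast, had signals of 115.1, 142.7 and 352.5 in divided bulge cells and 33.6, 35.3 and 4.6 in non-bulge cells. Unlike the summed signal, Col3a1 and Col1a2 were lower in undivided bulge cells than in divided ones, with 4.3, 12.3 and 25.7 for Col3a1 and 31.2, 23.2 and 49.4 for Col1a2. Of the 10 tested genes of the list, 2 passed as higher in divided than in undivided bulge cells and 4 as lower. Over all tested genes these shares were 6.54% and 6.71%. The part of these markers in the result was not tested.

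Col8a2, a chain of type VIII collagen, rose by 2.64 ± 0.49 but was 5.74 in the divided array of mouse 2, near the non-bulge levels of 5.64, 4.88 and 5.64. Timp2, an inhibitor of matrix metalloproteinases, had 9.24, 8.94 and 10.30 in divided bulge cells, against 7.75, 7.59 and 8.44 in non-bulge cells. Timp2 (1.57 ± 0.25), the lectin Lgals1 (1.67 ± 0.26) and Mfge8, which bridges dying cells to integrins (1.65 ± 0.32), all rose. The 5 other probe sets of Timp2 gave between 0.31 and 1.95, and Timp2 did not pass with the mean of probe sets (1.12). For Lgals1 the 1 other probe set gave 2.57. Of 22 tested collagens 2 passed, with a median of 0.16 over the list, and of 34 tested proteoglycans, integrins and laminins 1 passed, Cspg4, with a median of 0.32.

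Among the 8 genes for receptors, guidance cues and signalling, Sema3e, a semaphorin, rose most: it had 10.35, 8.97 and 10.80 in divided bulge cells, against 6.51, 6.27 and 8.68 in non-bulge cells, a rise of 2.89 ± 0.39. Cxcr4, the receptor for the chemokine CXCL12, had 8.22, 8.11 and 8.71 in divided bulge cells, against 4.31, 6.27 and 6.38 in non-bulge cells, a rise of 2.69 ± 0.47. Both sets of groups stood clear of each other. Ephb1, a receptor for ephrin-B ligands, rose by 1.82 ± 0.37, Nt5e, which makes adenosine at the cell surface, by 1.61 ± 0.30 and Homer2, a scaffold protein, by 1.88 ± 0.38. The 2 other probe sets of Nt5e gave 0.23 and 2.72, and those of Homer2 gave 1.14 and 1.91. The kinase Sgk1 rose by 0.84 ± 0.18, the smallest change of the 49. Dab2, an endocytic adaptor, differed by 1.19, 0.89 and 3.90, so mouse 3 carried most of its rise. Ctnnd2, a delta-catenin, rose by 2.41 ± 0.43, and its 1 other probe set gave -0.27.

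Genes of keratins, hair and the cornified layer made up 8 of the 49. Krt6a, a keratin of the inner bulge layer and the companion layer, had 9.92, 8.92 and 10.41 in divided bulge cells, against 8.76, 5.36 and 8.21 in non-bulge cells, a rise of 2.31 ± 0.44. Krtap17-1, a hair keratin-associated protein, had 8.63, 7.07 and 9.22 in divided bulge cells, against 5.33, 5.05 and 6.26 in non-bulge cells, a rise of 2.76 ± 0.38. Tgm5, a transglutaminase, rose by 1.87 ± 0.35 and Calml3, a calmodulin-like protein of epithelia, by 1.5 ± 0.30, with mouse 1 highest for Tgm5 (2.62) and mouse 3 for Calml3 (2.71). The other 4 were Krt23, Lce1a1, Lce1a2 and Ly6g6c.

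Krt23, a type I keratin, had 10.74, 10.49 and 9.47 in divided bulge cells, against 9.06, 7.84 and 7.39 in non-bulge cells, and rose by 2.13 ± 0.44 (adjusted p = 0.0258). Lce1a1, a late cornified envelope protein, had 8.90, 9.57 and 8.59 in divided bulge cells, against 7.04, 5.86 and 6.33 in non-bulge cells, and rose by 2.61 ± 0.57. Lce1a2 had 10.71, 10.16 and 8.11 in divided bulge cells, against 6.67, 6.34 and 5.79 in non-bulge cells, and rose by 3.39 ± 0.73. The groups of these 3 genes did not overlap, but their calls were among the less stable ones, since Krt23 passed in 0 of the 9 fits that left out an array or a mouse and Lce1a1 and Lce1a2 in 1 each. Lce1a1 and Lce1a2 are close relatives within one gene cluster, so their probe sets may not separate them. Ly6g6c, a Ly6 family member, rose by 1.15 ± 0.22, and its 2 other probe sets gave between -1.46 and 0.77. Over the epidermal differentiation list, 2 of 24 tested genes rose (Lce1a1 and Calml3) and 0 fell, with a median of 0.67. A positive estimate was found for 21 of the 24, beside 53.9% of all tested genes.

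The remaining 13 genes have mixed or less familiar roles. Armcx2 had 7.63, 8.35 and 8.30 in divided bulge cells, against 5.31, 4.07 and 5.08 in non-bulge cells, a rise of 3.27 ± 0.42. The non-bulge signals of Armcx2 were near 0 (23.8, 0.8 and 17.8), and its difference was 4.77 for a constant of 1 and 2.05 for 64. Its 2 other probe sets gave 0.08 and 1.84, and it did not pass with the mean of probe sets (1.73, adjusted p = 0.0922). Rnf150, a RING finger protein, rose by 2.91 ± 0.42. Gm26911, a predicted gene, rose by 2.57 ± 0.46, Scrg1 by 2.09 ± 0.39, Cdc42ep3, an effector of the GTPase CDC42, by 1.86 ± 0.35, and Ift57, a part of the machinery that builds cilia, by 1.81 ± 0.32. The 1 other probe set of Cdc42ep3 gave 1.35 and that of Ift57 gave 0.25. S100a4, a calcium-binding protein of the bulge, differed by 2.61, 0.53 and 2.29, with mouse 2 lowest. Rnf152 (1.69), Rflnb (1.5), Zfp365 (1.43), Rai14 (1.20), Phyhip (1.04) and Ndrg2 (0.85) made up the low end. The 2 other probe sets of Rflnb gave 0.02 and 0.68, and the 1 other of Zfp365 gave 0.94.

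The same contrast in the 3 mice of PD25, which shares no array with PD21, called 1428 genes (12.3%), 877 higher (7.58%) and 551 lower (4.76%). Of the 49 genes, 45 were also higher in divided bulge cells at PD25, and over the 49 the median difference there was 3.65. The estimate was larger at PD21 than at PD25 in 5 genes, Col1a1, Krt23, Lce1a1, Lce1a2 and Ly6g6c, and smaller in the others. Lhx2 differed by 4.51 ± 0.25 at PD25, Dkk3 by 4.14 ± 0.28, Grem1 by 4.26 ± 0.34 and Cspg4 by 4.50 ± 0.42. The 4 that did not pass at PD25 were Krt23 (0.09 ± 0.44), Lce1a1 (0.70 ± 0.57), Lce1a2 (0.62 ± 0.73) and Ly6g6c (0.39 ± 0.22). These are keratin, cornified envelope or Ly6 genes, and for each the difference between the ages did not pass either (adjusted p = 0.0722 for Krt23, 0.221 for Lce1a1, 0.148 for Lce1a2 and 0.189 for Ly6g6c).

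The difference between the ages itself passed for 451 genes (3.9%), with 179 higher (1.55%) and 272 lower (2.35%) at PD21, against 189 in all (1.63%) without the mouse as a block. It uses the PD21 arrays that chose the 49 genes, and among these it passed for 21, all smaller at PD21, and for 0 in the other direction. The PD21 difference minus the PD25 one was -2.55 ± 0.35 for Lhx2 (adjusted p = 0.000344), -2.77 ± 0.39 for Fzd2 and -2.95 ± 0.43 for Nt5e. For the other 28 the test of the difference did not pass. They include Cspg4 (-1.51 ± 0.59), Fstl1 (-1.48 ± 0.55), Id4 (-0.77 ± 0.52) and Col1a1 (0.34 ± 0.75).

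**Figure D3:**
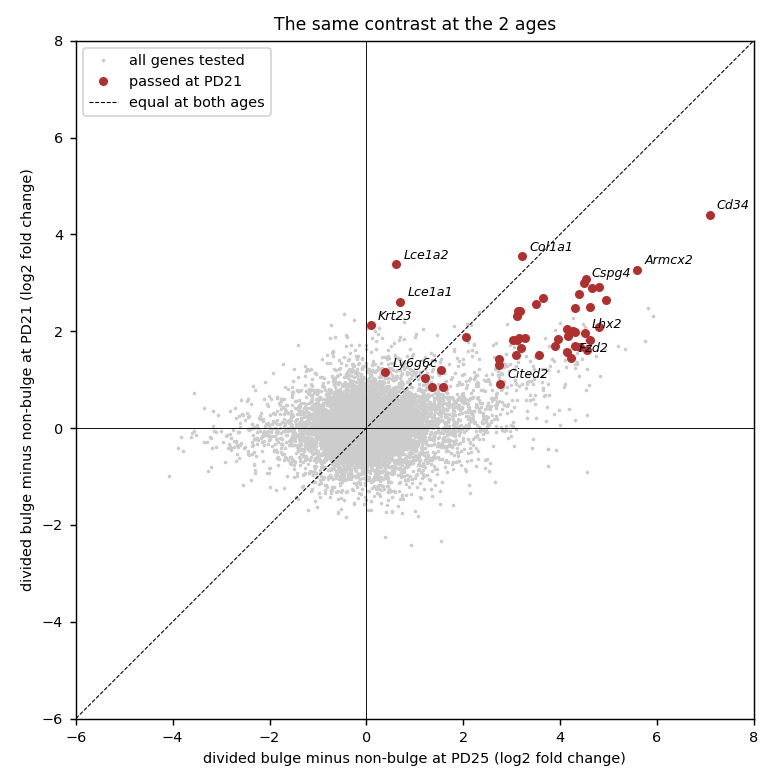
Divided bulge minus non-bulge at PD21 (vertical) and at PD25 (horizontal) for all tested genes in grey and the 49 that passed at PD21 in red, as log2 fold changes, with a dashed line of equality. Most red points lie right of the line, and Krt23, Lce1a1, Lce1a2, Ly6g6c and Col1a1 lie left of it.

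Seen from the PD25 calls, the PD21 differences were small. These genes were chosen on their PD25 values, which by itself draws their PD25 medians away from 0. The 877 genes higher at PD25 had a median of 1.82 there and of 0.27 at PD21, where 45 (5.13%) passed and 635 (72.4%) had a positive estimate, beside 53.9% of all tested genes. In mice 1, 2 and 3 at PD21 their medians were 0.23, 0.26 and 0.39. The 551 genes lower at PD25 had a median of -1.38 there and of -0.06 at PD21, with 0 passing and 315 (57.2%) negative, beside 46.1% of all tested genes.

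Of 15 tested genes of the basal interfollicular epidermis, 8 were lower in divided bulge cells at PD25, beside 4.76% of all tested genes. The median over the list was -1.37 at PD25. At PD21, 0 passed and the median was -0.00. Il33, an alarmin cytokine, stood at 10.90, 10.76 and 10.99 in divided bulge cells at PD21, against 11.35, 11.80 and 10.96 in non-bulge cells. The difference was -0.48 at PD21 (interval -1.27 to 0.30) and -3.78 ± 0.38 at PD25, and the ages differed by 3.29 ± 0.53 (adjusted p = 0.00118). Wnt3, a Wnt ligand, differed by -0.18 at PD21 (interval -1.16 to 0.81) and -3.62 ± 0.47 at PD25. Ly6d, a surface protein of epidermal cells, differed by 0.09 (interval -0.38 to 0.57) and -2.37 ± 0.23. For 8 of the 15 the difference between the ages passed with a positive value, as it did for 1.55% of all tested genes. That difference contains the PD25 values that made the PD25 calls, so the counts are not separate results.

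Set against undivided bulge cells of the same PD21 mice, divided bulge cells were higher in 757 genes (6.54%) and lower in 776 (6.71%), and the total of 1533 (13.3%) was 958 (8.28%) without the mouse as a block. This comparison shares the divided arrays with the one that chose the 49 genes. Of the 49, 42 were lower in divided than in undivided bulge cells and 0 were higher, with a median of -2.52. Dkk3 was 13.51, 12.81 and 13.23 in undivided bulge cells, so divided minus undivided was -2.87 ± 0.28, and for Krt6a it was -3.77 ± 0.44. Against the same non-bulge arrays, the median over the 49 genes was 1.91 for divided and 4.41 for undivided bulge cells.

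The 7 genes that did not pass between the bulge fractions were Col1a1 (-0.54 ± 0.53), Zfp365 (-0.55 ± 0.30), Rai14 (-0.70 ± 0.26), Krt23 (1.08 ± 0.44), Lce1a1 (0.94 ± 0.57), Lce1a2 (1.14 ± 0.73) and Ly6g6c (0.39 ± 0.22). Col1a1 thus stood at 10.05, 8.81 and 9.0 in divided and at 10.14, 9.51 and 9.83 in undivided bulge cells, and the interval of that difference was -1.65 to 0.56. The last 4 genes are those that did not pass at PD25, and theirs were the only estimates among the 49 that were higher in divided than in undivided bulge cells.

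No cell cycle list had a call between divided bulge and non-bulge cells, while some of these genes passed between divided and undivided bulge cells. Mki67, a marker of cycling cells, stood at 13.31, 13.21 and 12.82 in divided bulge cells, against 13.31, 13.62 and 12.75 in non-bulge cells, and at 12.11, 12.93 and 11.74 in undivided bulge cells. Its difference from non-bulge was -0.11 (interval -0.50 to 0.27), and from undivided bulge it was 0.85 ± 0.19 (adjusted p = 0.00299). Of 30 tested mitosis genes 0 passed against non-bulge, with a median of 0.17, and 12 were higher than in undivided bulge cells, with a median of 0.86. Over all tested genes, 6.54% were higher than in undivided bulge cells. Of 29 tested DNA replication genes 0 passed against non-bulge and 3 were higher than in undivided bulge cells. Of 14 tested CDK inhibitors and pocket proteins 0 passed against non-bulge, and the interval of Cdkn1b, the p27 inhibitor, was 0.01 to 1.10.

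The other lists had few or no calls against non-bulge cells at PD21, and 0 genes of any list were lower. For every list count of this contrast, the share over all tested genes was 0.424%. The list of bulge surface, secreted and structural genes had the most, 7 of 28 (Cd34, on which the bulge was sorted, and Cspg4, Grem1, Dkk3, Sfrp1, S100a4 and Fzd2), with a median of 1.03 at PD21 and 3.01 at PD25. By mouse its median was 1.14, 0.32 and 1.56 at PD21, so mouse 2 showed the least. Igfbp5, a member that did not pass, had 7.41, 5.67 and 9.41 in divided bulge cells, against 5.48, 4.19 and 6.37 in non-bulge cells (2.15 ± 0.55, adjusted p = 0.115), and Crabp1 differed by 1.17, 0.15 and 2.92. Isthmus and infundibulum genes had 1 call of 13 (Krt6a), and the hair germ, sebaceous gland, FGF, Hedgehog, Notch, immediate early and interferon lists had 0, with medians of 0.69, 0.05, 0.06, 0.01, 0.05, 0.13 and 0.14.

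**Figure D4:**
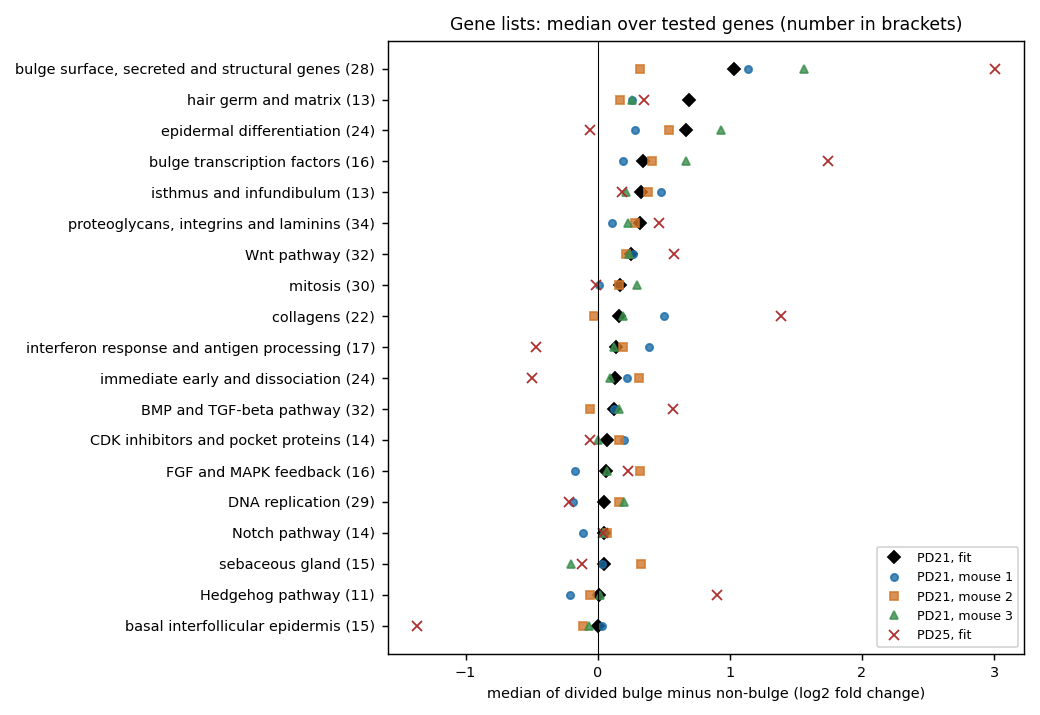
Median of divided bulge minus non-bulge over the tested genes of each list (number in brackets), as a log2 fold change. Diamonds are the fit at PD21, the 3 other filled symbols the PD21 mice and crosses the fit at PD25. The bulge surface list has the highest median at both ages, 1.03 and 3.01, and basal interfollicular genes have -0.00 at PD21 and -1.37 at PD25.

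Of the markers of other cells that were tested, Col1a1 alone passed at PD21. Some were bright, such as Thy1 in the fibroblast list, with signals of 3546.9, 1737.3 and 4104.9 in divided bulge cells and 2761.8, 2800.2 and 4043 in non-bulge cells, and Lpl of adipocytes, with 2221, 1575.6 and 1513.8 against 2897.3, 1541.4 and 3103.7. None of the 12 endothelial genes was bright enough to be tested, and their summed signal lay between 190 and 374 in divided bulge cells and 278 and 332 in non-bulge cells. The summed immune signal lay between 1566 and 2739 in divided bulge cells and between 916 and 5971 in non-bulge cells, where the high value is mouse 1, with Ptprc at 203.2 there and at 30 and 32 in the others. In that array the immune genes Laptm5 and H2-Aa had 1147.6 and 1101.5, and Vim had 2413.4, against 99.1 and 141.9 in the other non-bulge arrays. Of the 16 immune genes 11 were tested, with a median of 0.19. Summed ranges were 880 to 934 and 540 to 1233 for pericytes, 523 to 1386 and 746 to 972 for melanocytes, 221 to 625 and 446 to 672 for Schwann cells, 154 to 247 and 116 to 153 for Merkel cells, and 1774 to 2309 and 1693 to 3312 for adipocytes and erythroid cells, divided bulge before non-bulge in each. The 3'/5' signal ratio of Gapdh, a measure of RNA length, was higher in divided bulge than in non-bulge cells of each mouse, with 9.05, 5.62 and 9.67 against 7.15, 4.57 and 8.77, while that of actin was 0.953, 1.01 and 1.12 against 0.908, 0.95 and 1.23. Their part in the results was not tested. Array medians were 64.8, 70.4 and 116.6 in divided bulge cells and 81.7, 72.2 and 115.2 in non-bulge cells, so mouse 3 stood apart from the others in both fractions alike.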

How the data were processed

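The deposited values are linear intensity signals of Affymetrix MOE 430 2.0 probe sets, made by the authors with GCOS per the submitters' processing notes (version not given in the sources used here), from 5 ng of amplified RNA per the labels' protocols. Each array's 2% trimmed mean was 500, so no further scaling was applied. Signals became log2(signal + 16). This log2 scale of the deposited signals understates changes of dim genes. Of 45101 probe sets, 64 controls, 932 with several symbols and 9160 with none listed were left out. Symbols came from the platform annotation, and 34741 of 34945 matched RefSeq. Probe sets above their array's median in at least 3 of 18 arrays were kept, the brightest per gene, giving 11569 genes. Per-sample columns left unused numbered 0.

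limma 3.58.1 in R 4.3.3 (lmFit, eBayes with trend) fitted all 18 arrays with the mouse as a block, with 8 residual and 13.2 prior degrees of freedom. In 1 simulated data set, it recovered 37 of 100 genes changed by 1 on the log2 scale and 76 of 100 changed by 2. Of the 125 calls there, 12 were false. The simulation drew independent normal noise with the variances of this fit, and held no other fraction effects. Genes were not linked and arrays were equally noisy, so its rates need not hold for the real arrays. Genes passed at a Benjamini-Hochberg adjusted p under 0.05. The titles give the 3 fractions of an age the same mouse numbers. After group means were removed, divided and non-bulge arrays of 1 mouse correlated at 0.12, 0.11 and 0.46 at PD21 and 0.32, 0.12 and 0.20 at PD25. The number of arrays limits precision. Maximum signals split the arrays into a set of 9 above 50000 (PD21 mice 1 and 2, PD25 mouse 1) and a set of 9 below. The labels do not say what this is. The mouse block takes out a shift in level between the sets, but not a difference between them in the size of a fraction's effect. The sets are uneven between the ages, so in the age difference such an effect cannot be told apart from age.

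Named genes are all that passed at PD21, up to 4 passing members per list, the 5 of lowest p for the age difference and for divided against undivided bulge, and a stated list. The comparison, the 27 gene lists, 8 of them for other cell types, and this rule were chosen with earlier results of these data known. Role groups were made after the values were seen. Lists are described by counts and medians, with no test.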

Additional observations from a re-analysis of the deposited data

Results flagged for a closer look

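The divided bulge minus non-bulge difference was not the same at the 2 ages for 451 genes, by the contrast of contrasts in the fit with the mouse as a block (limma, adjusted p under 0.05). In what follows the value is the PD21 difference minus the PD25 difference on the log2 scale, so a negative value means that divided bulge cells stood less far above, or further below, non-bulge cells at PD21.

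Among genes higher in divided bulge cells at PD21, the value was -2.67 for Cd34, -2.55 for Lhx2, -2.26 for Tbx1, -1.84 for Cited2, -2.14 for Sfrp1, -2.09 for Dkk3, -2.77 for Fzd2, -1.45 for Fzd1 and -2.11 for Shisa2. It was -2.25 for Grem1, -2.63 for Ltbp1, -2.58 for Timp2, -2.75 for Lgals1, -2.95 for Nt5e, -2.80 for Ephb1, -2.33 for Dab2, -2.05 for Calml3, -2.71 for Scrg1, -2.21 for Rnf152, -2.33 for Armcx2 and -1.59 for Rflnb. Bulge regulators that did not pass at PD21 also had negative values, with -1.83 for Sox9, -1.45 for Runx1 and -1.54 for Nfatc1.

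Of the genes with the lowest p, Pi15 (-4.19), Pm20d1 (-5.47) and Nrep (-2.34) differed by -0.44, -0.91 and 0.26 at PD21 and by 3.75, 4.56 and 2.60 at PD25. The secreted enzyme gene Pm20d1 was thus higher in divided bulge cells at PD25, and its PD21 estimate did not pass.

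Of the 179 genes with a positive value that passed, 171 were among those lower in divided bulge cells at PD25. The value contains the PD25 difference that made those calls, so much of this overlap is built in. Named ones were 3.29 for Il33, 3.44 for Wnt3, 2.71 for Bmp4, 2.76 for Il1r2, a decoy receptor for interleukin-1, 2.46 for Ly6d, 1.20 for the transcription factor Gata3, 2.32 for Mettl7a1, 3.51 for Ppp2r2c, 2.46 for Cfap57, 1.57 for Fam3c and 1.76 for the protease Prss23. The PD21 estimates of these 11 genes lay between -0.48 and 0.51, and those at PD25 between -3.78 and -1.37.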

How the results depend on the processing

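All 49 PD21 differences stayed positive under each of 23 alternatives, but the number of genes that passed moved. The 49 were chosen on these arrays and were positive in each mouse, so leaving out a mouse could not turn a sign. Other settings had little room to do so. Without the mouse as a block, 21 passed at PD21 (all higher), 189 in the age difference, 958 between divided and undivided bulge and 1278 between undivided bulge and non-bulge. At PD21, 22 passed with only the 6 arrays compared (21 higher, 1 lower), 28 with the mean of a gene's probe sets, 9 without the mean-variance trend, 149 with array weights (142 higher, 7 lower) and 24 within the arrays with a maximum below 50000. Of PD21, the arrays below 50000 hold mouse 3 alone, and of PD25, those above 50000 hold mouse 1 alone. Counts for such an age within its set, and for the age difference in either set, thus rest on 1 mouse per group. Their error comes from the mice of the other age, so these counts are not replicated checks. The fit below 50000 is among the 23 alternatives. Of the 49 genes themselves, 16 passed with only the 6 arrays compared and 8 without the trend. The counts at other constants, filters and with quantile scaling were 48 to 57. Leaving out an array or a mouse gave 13 to 39 genes at PD21, lowest without divided mouse 3, with 17 without all arrays of mouse 3, 26 without non-bulge mouse 2 and 29 without non-bulge mouse 3. The age difference gave 140 without trend, 684 with array weights, and 233 and 1 within the arrays above and below 50000. At PD25, 578 passed within the arrays above 50000. Divided against undivided bulge gave 230 within those below 50000. Undivided bulge against non-bulge gave 1277 and 552 within the arrays above and below. Leaving out arrays or mice gave 936 to 1167 at PD25, 171 to 419 for the age difference, 815 to 1145 between the bulge fractions and 1131 to 1566 between undivided bulge and non-bulge. The lowest count came without mouse 1 of that age in each of these 4, and the age difference was 171 without PD21 mouse 1. Over the 82 named genes and all settings, 411 calls at PD21 were lost and 8 gained (Sox9, Igfbp5, Runx1 and Crabp1), and 0 called genes changed sign. Genes outside the named ones that passed only under an alternative, as with array weights, are not in the count of gains. Signs of genes that did not pass were not tracked. Dim signals limit precision, as for Cd34 in non-bulge cells.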

Other observations

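No gene passed as lower in divided bulge than in non-bulge cells at PD21 (0 by limma, with 248 at an unadjusted p under 0.05), and the 5 decreases of lowest p were read as values only. They were Polh, a translesion DNA polymerase (-1.15 ± 0.29, adjusted p = 0.103), Cops7b, a subunit of the COP9 signalosome (-1.12 ± 0.30), Pafah2, a phospholipase (-0.90 ± 0.24), Pds5a, a cohesin regulator (-1.27 ± 0.34), and Rwdd1 (-2.25 ± 0.62). Each was negative in all 3 mice, as were 13.3% of all genes, and Rwdd1 had -1.53, -2.51 and -2.70 in mice 1, 2 and 3 with an adjusted p of 0.176.

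Just outside the threshold on the higher side stood Sbsn, Cald1 (1.13 ± 0.26), Chst14 (1.93 ± 0.45), Klk7 (1.44 ± 0.33) and Nectin1 (1.40 ± 0.32), the last 4 with adjusted p = 0.0623. Sbsn and Klk7, a kallikrein, are genes of the differentiated epidermis.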
